A study of Mus musculus with 1504 samples.

Results

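A group of 10 secreted regulators of WNT signalling was followed through single cells of the adult mouse lung. They are the ligands Wnt2, Wnt4, Wnt5a and Wnt11, the R-spondins Rspo1 and Rspo3, and the inhibitors Sfrp1, Sfrp4, Wif1 and Notum. The members were a given list, and their rows were read in the table of raw read counts, 10 of 21947 genes, over all 1504 cells. The list was drawn up with earlier results of these data known, so what follows describes levels and was given no test.

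WNT ligands are lipid-modified proteins that act over short distances on Frizzled receptors and LRP co-receptors, and the canonical branch stabilises β-catenin and switches on LEF/TCF targets such as Axin2. R-spondins bind LGR receptors and raise the number of Frizzled receptors at the cell surface by removing the ubiquitin ligases Rnf43 and Znrf3. Secreted Frizzled-related proteins and Wif1 bind ligands outside the cell, and Notum is an enzyme that removes their lipid. In the lung, WNT ligands from mesenchymal cells are known to act on alveolar epithelial stem cells and on developing vessels.

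Promoter sequence is shown for 3 members: Wnt4 and Wif1, each at its highest by far in a single class of cells, and Wnt11, the member whose window held a LEF/TCF-type motif. RefSeq promoter windows (GRCm38.p6) matched 5 of the 10 members, Wnt2, Wnt4, Wnt11, Rspo1 and Wif1, with 6 windows in all because Wnt11 has 2. Each of the 6 windows, of 250 bases, had a CpG count between 16 and 44, against a median of 6 over 32851 mouse promoters of the same length. The Wnt4 window had 85.2% G and C, a content that 0.143% of promoters reached, and the Wif1 window had 62.8%, which 21.7% reached. Some windows run past the annotated gene start, and only the bases before it are printed. These are 104 of the 250 bases for Wnt4, with 16 of its 44 CpG pairs, and 206 for Wif1. The second Wnt11 window lies wholly past the start. The first 2 lines below cover chr4:137277385-137277488 and chr10:121033754-121033959, both on the plus strand and ending at the base before the gene's annotated start, with CpG pairs in capitals.
Wnt4: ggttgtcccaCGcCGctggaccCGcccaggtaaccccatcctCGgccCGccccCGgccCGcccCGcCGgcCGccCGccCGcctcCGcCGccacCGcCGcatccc
Wif1: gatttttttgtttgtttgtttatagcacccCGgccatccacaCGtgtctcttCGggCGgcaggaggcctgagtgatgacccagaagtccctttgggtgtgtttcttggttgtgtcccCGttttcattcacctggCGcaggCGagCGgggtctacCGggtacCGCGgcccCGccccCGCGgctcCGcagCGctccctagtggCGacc
Wnt11: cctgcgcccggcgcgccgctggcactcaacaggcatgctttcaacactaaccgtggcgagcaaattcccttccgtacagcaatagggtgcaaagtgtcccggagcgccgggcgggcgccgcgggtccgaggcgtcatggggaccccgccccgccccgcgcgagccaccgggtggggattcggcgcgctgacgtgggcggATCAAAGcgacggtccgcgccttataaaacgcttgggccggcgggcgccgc
The Wnt11 line covers chr7:98834862-98835111 on the plus strand, and its capitals mark ATCAAAG, the reverse complement of CTTTGAT. That motif, read on both strands, was in 1 of the 6 windows and in 3.21% of all promoters. The related motif CTTTGTT, also read on both strands, was in 0 of the 6 windows and in 5.03% of all promoters. A match describes these letters and is no measured binding site.

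Fluorescent lung cells of C57BL/6 mice were sorted into the wells of 384-well plates. SMART-seq2, which reads whole polyadenylated transcripts, was used for sequencing. The labels name 769 cells of Cldn5(BAC)eGFP mice, whose eGFP is driven by the Cldn5 promoter on a bacterial artificial chromosome, 361 cells of Pdgfrb(BAC)eGFP mice that also carry NG2dsRed, and 374 cells of Pdgfrb(BAC)eGFP mice. The mice were 12 to 15 weeks old by the sample labels and 10 to 19 weeks old by the series' design text, and the labels name no treatment. Columns of the count table carry set names: EC1, EC2 and EC3 (243, 275 and 251 cells, taken as the Cldn5-eGFP cells, since the design text says that this reporter marks endothelium), Mural1 and Mural2 (128 and 233 cells) and Mural3 (374 cells). Mural set names give no reporter, so these sets are called by their own names. No label names an animal, a plate or a day, so each population counted as 1 sample, no p-value was computed, and every interval covers counting error only.

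Total reads of a cell lay between 100229 and 609242, and no cell was left out. Medians were 198570 reads in Cldn5-eGFP cells, 251676 in Mural1 and Mural2 and 367962 in Mural3. As a check of the sort, Cldn5 had a read in 99.6% of Cldn5-eGFP cells, and Pdgfrb in 97.2% of Mural1 and Mural2 and 97.6% of Mural3. Cells were grouped into 16 clusters without using the WNT genes, and clusters were named from marker genes, which gave 7 classes. These were pericyte-like (66 cells, Cox4i2 with a read in 98.5%), smooth muscle-like (71 cells, Myh11 in 100%), fibroblast-like (411 cells in 7 clusters, Col1a1 in 99.8%), chondrocyte- or perichondrial-like (43 cells, Acan in 81.4%), general capillary-like (663 cells, Gpihbp1 in 91.7%), aerocyte-like (73 cells, Car4 in 100%) and lymphatic-like (22 cells, Mmrn1 in 100%). The pericyte-like cells were all in Mural1 and Mural2, 25 and 41 of them, and 38 of the 43 chondrocyte- or perichondrial-like cells were in Mural1. Another 155 cells in 3 clusters held many epithelial or leukocyte transcripts and stayed unnamed. They made up 1.82% of Cldn5-eGFP cells, 23.8% of Mural1 and Mural2 cells and 14.7% of Mural3 cells, and 43.2% of them carried at least 5 endothelial and at least 5 mural or fibroblast markers together. No doublet caller was run.

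A level below is given in CPM, the reads of a gene per 1000000 reads summed over all cells of a class. A share is the percentage of cells with at least 1 read of the gene after every cell was thinned to 50000 reads. A gene was called higher on a side when it was at least 4-fold higher there, with at least 10 CPM and at least 10% of cells with a read on that side, and at least 20 cells on each side. A gene was led by a class when it passed this rule against every other named class.

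By this rule 5 of the 10 members were led by a class: Wnt4 by pericyte-like cells, Sfrp1 and Sfrp4 by fibroblast-like cells, and Wif1 and Notum by chondrocyte- or perichondrial-like cells. Of the 10966 genes kept out of the clustering, 4.69% were led by a class, and 8.31% of those that reached 10 CPM in some class, as all 10 members did. Taken class by class, 0.93% of genes were led by pericyte-like cells, 0.885% by smooth muscle-like, 0.62% by fibroblast-like, 0.821% by chondrocyte- or perichondrial-like, 0.31% by general capillary-like, 0.264% by aerocyte-like and 0.857% by lymphatic-like cells. The other 5 members, Wnt2, Wnt5a, Wnt11, Rspo1 and Rspo3, were each high in more than 1 class, low, or read in few cells. General capillary-like cells stayed below 4 CPM for each of the 10 members, with shares of 0.151% to 1.36%. These shares are no background for the mural classes, since the sorts differed in genes read per cell. After thinning the median cell had 1616 genes with a read in Cldn5-eGFP cells, 3443 in Mural1 and Mural2 and 3251 in Mural3. Median depth was 191844 reads in general capillary-like cells and 142392 reads in pericyte-like cells, the shallowest class.

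**Figure D1:**
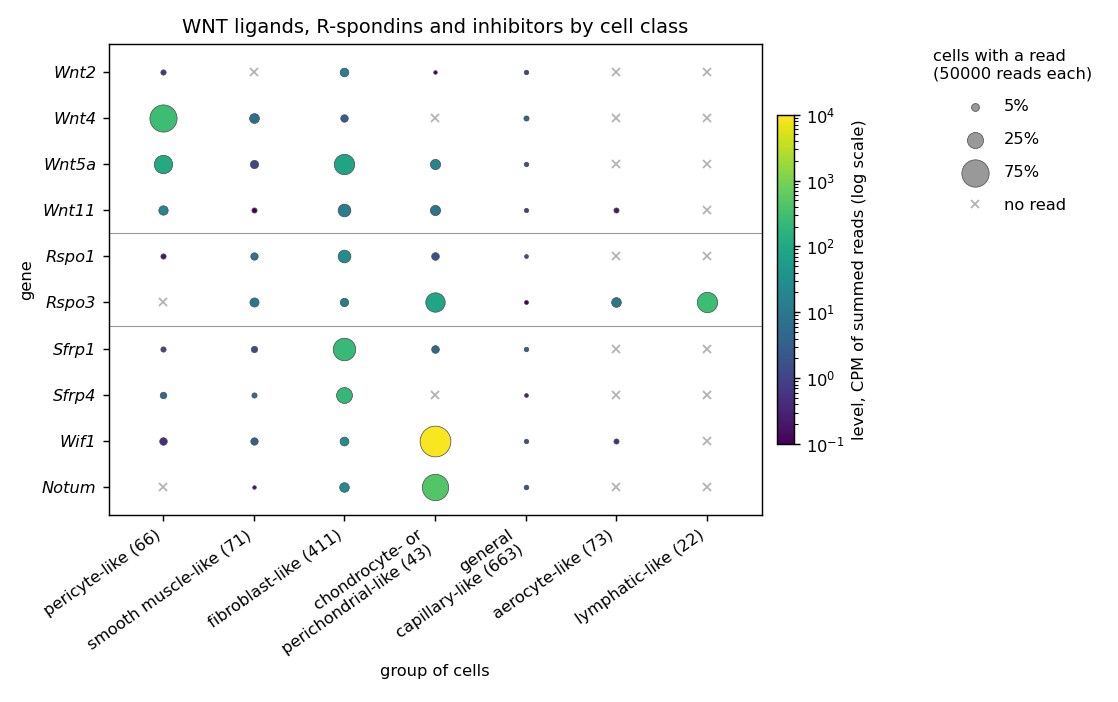
The 10 members (rows, with ligands above R-spondins and inhibitors) in the 7 named cell classes (columns, cell numbers in parentheses), where colour gives the level in CPM on a log scale, dot area grows with the share of cells with a read, and a cross marks no read. Wnt4 stands out in pericyte-like cells (264 CPM), Rspo3 in lymphatic-like cells (267 CPM), Sfrp1 and Sfrp4 in fibroblast-like cells (235 and 209.9 CPM), and Wif1 and Notum in chondrocyte- or perichondrial-like cells (8865 and 431 CPM).

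Among the ligands, Wnt4, which is known for roles in kidney and female reproductive tract development, lies at chr4:137277489-137299726 on the plus strand. It stood at 264 CPM in pericyte-like cells (255 to 274) and at 5.79 CPM in smooth muscle-like, 3.59 in general capillary-like and 2.81 in fibroblast-like cells. No Wnt4 read was counted in chondrocyte- or perichondrial-like, aerocyte-like or lymphatic-like cells, where a count of 0 allows shares of up to 6.98%, 4.11% and 13.6%. The gene was widespread within the pericyte-like class: 49 of 66 cells had a read (74.2%, Clopper-Pearson interval 62.0% to 84.2%), and the median cell held 144 CPM. Pericyte-like cells were 45.7-fold above smooth muscle-like cells (38.0 to 55.4), the next class. These 66 cells held 67.7% of all Wnt4 reads. The cell with most Wnt4 reads held 22.7% of the class's reads, and the level without it was 208 CPM. In the sets that held pericyte-like cells Wnt4 had 259 CPM with a share of 88.0% (Mural1) and 268 CPM with 65.9% (Mural2). The top cell, at 3266 CPM, was in Mural2, so the closeness of these levels depends on that cell.

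Wnt5a (chr14:28504750-28527448, plus strand), a ligand mostly known for β-catenin-independent signalling, had 2 high classes. It reached 111 CPM in pericyte-like cells (104 to 117) and 81.6 CPM in fibroblast-like cells (80.1 to 83.0), a 1.36-fold difference (1.28 to 1.44). Shares ran the other way, 33.3% of pericyte-like and 40.9% of fibroblast-like cells, and the pericyte-like level was 85.9 CPM without its top cell, so no order of these neighbours is drawn. Fibroblast-like cells, the more numerous, held 80.0% of all Wnt5a reads. Chondrocyte- or perichondrial-like cells stood at 20.8 CPM, with 53.3% of the reads in 1 cell, and smooth muscle-like cells at 1.09 CPM. No read was counted in aerocyte-like or lymphatic-like cells. Within the pericyte-like class Wnt5a had 160.2 CPM in Mural1 and 76.6 CPM in Mural2, with shares of 36.0% and 31.7%.

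Wnt11 (chr7:98835112-98855195, plus strand), another ligand known for β-catenin-independent signalling, was low, with reads mainly in pericyte-like, fibroblast-like and chondrocyte- or perichondrial-like cells. Its levels were 19.8 CPM in pericyte-like, 14.0 in fibroblast-like and 8.34 in chondrocyte- or perichondrial-like cells, and at most 1.01 CPM in the other 4. In smooth muscle-like cells it had 1 read. One cell held 56.9% of the chondrocyte- or perichondrial-like reads. Shares were 7.58%, 15.1% and 9.30% in the same order, so the class with the highest level was not the one with the highest share. Without the top cell, pericyte-like cells had 12.0 CPM, below the fibroblast-like level.

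Wnt2 (chr6:17988940-18030585, minus strand), a ligand known for a part in lung development in the embryo, was nearly confined to fibroblast-like cells, which held 86.7% of its reads. It had 13.3 CPM there (12.7 to 13.9), with a read in 26 of 411 cells (6.33%, 4.17% to 9.13%), and 1.25 CPM in general capillary-like cells, 74.4% of it in 1 cell. The fold between them was 10.7 (9.09 to 12.6), but a share under 10% kept Wnt2 from being led by the class.

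Of the R-spondins, Rspo3 (chr10:29452416-29535867, minus strand), which is known for roles in vessel development, was the member with a high level among endothelial cells. Lymphatic-like cells had 267 CPM (254 to 281), chondrocyte- or perichondrial-like cells 85.7 CPM (80.7 to 90.8), and fibroblast-like, smooth muscle-like and aerocyte-like cells 11.5, 10.3 and 9.78 CPM. Smooth muscle-like cells did not differ beyond counting error from fibroblast-like or from aerocyte-like cells, the classes next to them in this order. Of the smooth muscle-like reads 59.6% were in 1 cell, and the level without it was 4.22 CPM, below the other 2. Pericyte-like cells had no read, which allows a share of up to 4.55%, and general capillary-like cells 0.0381 CPM. The lymphatic-like level was 3.12-fold that of chondrocyte- or perichondrial-like cells (2.89 to 3.37), short of the 4-fold rule.

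The lymphatic-like reads came from few cells. A read was found in 9 of 22 cells (40.9%, 20.7% to 63.6%), whose levels were 1804, 1516, 1448, 843, 97.9, 85.1, 64.5, 56.7 and 23.8 CPM, while 13 cells had none. Cells with a read occurred in all 3 Cldn5-eGFP sets, 3 of 7 cells in EC1, 2 of 6 in EC2 and 4 of 9 in EC3, at 484, 32.5 and 263 CPM. Leaving out the top cell gave 199.7 CPM. In chondrocyte- or perichondrial-like cells the share was nearly as high, 16 of 43 cells (37.2%, 23.0% to 53.3%).

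**Figure D2:**
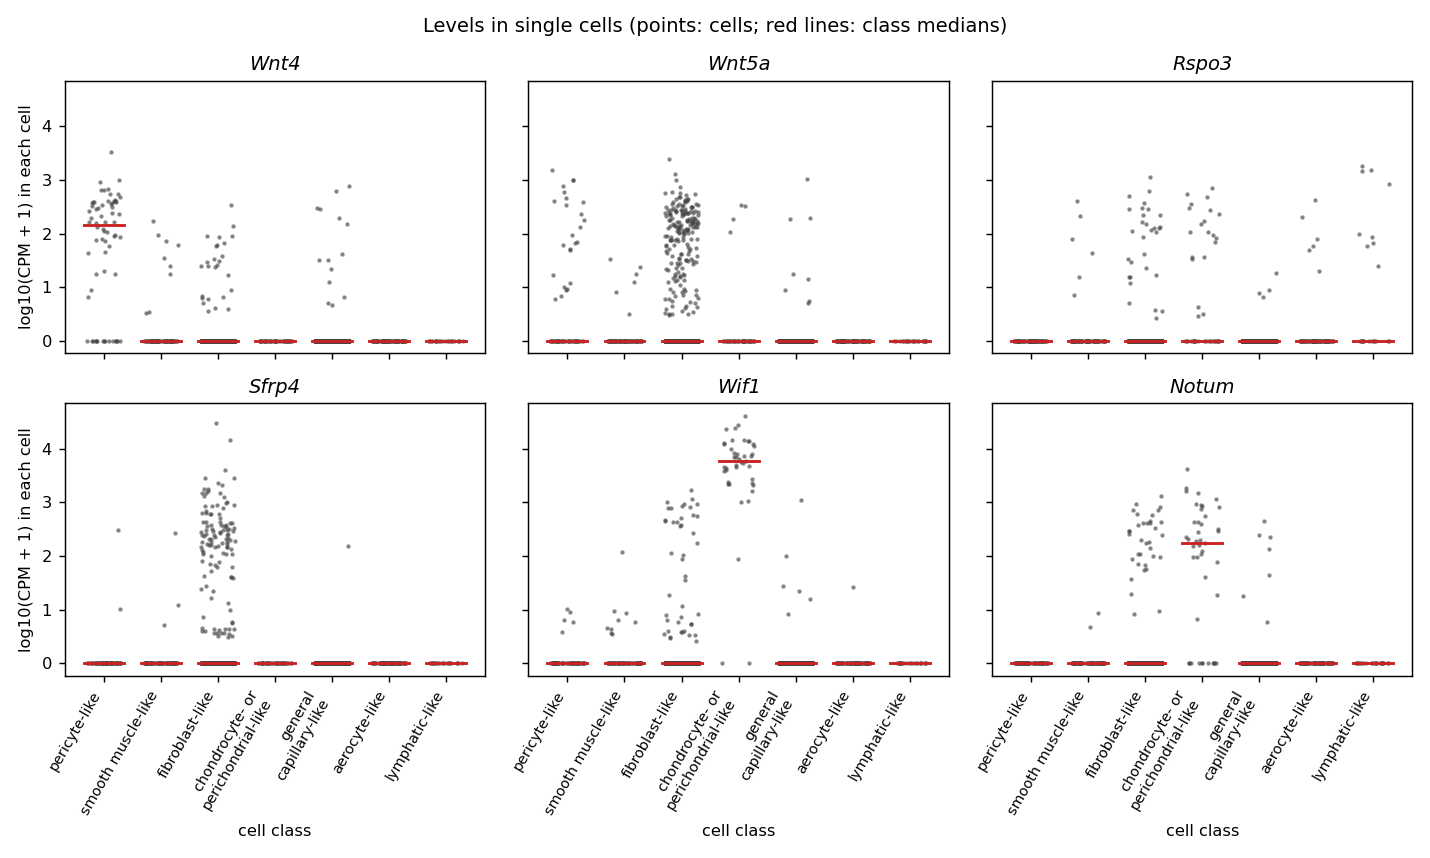
Level of 6 members in single cells, as log10(CPM + 1) of all reads of a cell, with a point per cell, cells without a read at 0 and red lines at the medians of the 7 classes. The 4 highest lymphatic-like cells for Rspo3 lie between 843 and 1804 CPM while 13 of 22 have no read, and the chondrocyte- or perichondrial-like cells for Wif1 centre on 5857 CPM.

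Rspo1 (chr4:124986430-125009099, plus strand), known for its part in ovary differentiation, was highest in fibroblast-like cells at 28.2 CPM (27.3 to 29.0), with a read in 15.1% of cells. Smooth muscle-like cells followed at 9.05 CPM, of which 79.2% was in 1 cell, and pericyte-like, aerocyte-like and lymphatic-like cells had 2, 0 and 0 reads. The fold over smooth muscle-like cells was 3.11 (2.68 to 3.63), again under the 4-fold rule. Fibroblast-like cells held the largest part of the reads of both R-spondins, 77.7% for Rspo1 and 34.1% for Rspo3, and lymphatic-like cells held 0% and 31.1%. Both had reads in fibroblast-like cluster 2, at 53.0 CPM for Rspo1 and 26.3 CPM for Rspo3.

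Of the inhibitors, Wif1 (chr10:121033960-121100650, plus strand), which binds WNT ligands directly, was the highest member in any class. Chondrocyte- or perichondrial-like cells had 8865 CPM (8814 to 8916), with a read in 41 of 43 cells (95.3%, 84.2% to 99.4%), a median cell of 5857 CPM and a highest cell of 41160.5 CPM. Fibroblast-like cells followed at 30.7 CPM, 289-fold lower (280.3 to 297), and the other classes at 3.22 CPM or less. The 43 cells held 93.8% of all Wif1 reads. Notum (chr11:120653788-120661175, minus strand), the lipid-removing enzyme, had the same first 2 classes at lower levels: 431 CPM in chondrocyte- or perichondrial-like cells (30 of 43 cells, 69.8%, median cell 172 CPM), 25.2 CPM in fibroblast-like cells, and 1.94 CPM or less elsewhere. Below these the orders differed, since Wif1 was higher in smooth muscle-like (3.22 CPM) than in general capillary-like cells (1.93 CPM), and Notum lower (0.148 and 1.94 CPM). The Notum fold between the first 2 classes was 17.1 (16.4 to 17.8), and its level without the top cell was 327 CPM. All 30 cells of this class with a Notum read also had a Wif1 read.

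Sfrp1 (chr8:23411502-23449632, plus strand) and Sfrp4 (chr13:19623104-19632994, plus strand), both secreted Frizzled-related proteins, were led by fibroblast-like cells. Sfrp1 had 235 CPM there (232 to 237), with a read in 207 of 411 cells (50.4%), and 4.67 CPM in chondrocyte- or perichondrial-like cells, the next class, a fold of 50.2 (39.1 to 65.7). Sfrp4 had 209.9 CPM (207.6 to 212), with a read in 100 cells (24.3%), and 6.48 CPM in smooth muscle-like cells, a fold of 32.4 (27.3 to 38.8). In those next classes 59.0% of the Sfrp1 reads and 96.9% of the Sfrp4 reads were in 1 cell. The 2 genes were distributed differently over cells. The top cell held 4.80% of the Sfrp1 reads, but a single cell at 30199 CPM held 30.9% of the Sfrp4 reads, and the Sfrp4 level without it was 145 CPM.

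Levels of different genes can be set side by side only per length, here as CPM divided by the annotated exon length in kilobases (RPKM). In pericyte-like cells Wnt4 had 63.0 RPKM, Wnt5a 14.1 and Wnt11 4.79, so Wnt4 was the most abundant of the 4 ligands. In chondrocyte- or perichondrial-like cells Wif1 had 3653 RPKM, Notum 179 and Rspo3 27.7. In fibroblast-like cells the levels were Sfrp1 53.7 RPKM, Sfrp4 50.2, Rspo1 14.5, Wif1 12.7, Notum 10.5, Wnt5a 10.4, Wnt2 5.91, Rspo3 3.72 and Wnt11 3.38. Notum and Wnt5a lay within counting error of each other. One cell held 10.2% of the Notum, 7.74% of the Wnt5a, 16.5% of the Rspo3 and 5.37% of the Wnt11 reads. No order is drawn between Notum and Wnt5a or between Rspo3 and Wnt11. Counted over cells, 86.4% of pericyte-like and 86.1% of fibroblast-like cells had a read of at least 1 member, against 6.18% of general capillary-like cells. Genes read per cell also differed between the sorts, and the same count over other genes is not given here. In pericyte-like cells 20 of 66 (30.3%) had reads of at least 2 ligands, and in fibroblast-like cells 49 of 411 (11.9%).

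The populations as sorted differ in their makeup, and the members differed with it. Of the 10 members, 6 were lower in Cldn5-eGFP cells than in Mural1 and Mural2 (5.99% of all genes were lower) and 0 were higher (2.44% of all genes). Against Mural3, 5 were lower in Cldn5-eGFP cells (4.71% of all genes) and 0 higher (3.41%). These 2 comparisons share the Cldn5-eGFP cells. The members' median log2 difference was -3.79 against Mural1 and Mural2 and -4.20 against Mural3, where the medians over all genes were -0.02 and 0.44 and those over the 85 other WNT pathway genes -0.96 and -0.30.

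Wif1 showed the largest fold against Mural1 and Mural2, with 1.83 CPM in Cldn5-eGFP cells and 1223 CPM in Mural1 and Mural2, 668-fold lower (596 to 751). It was followed by Sfrp4 (0.220 and 54.3 CPM, 246-fold lower), Notum (1.57 and 65.8 CPM, 42.0-fold), Wnt5a (1.57 and 61.8 CPM, 39.5-fold), Sfrp1 (3.00 and 44.2 CPM, 14.7-fold) and Wnt4 (3.00 and 35.6 CPM, 11.8-fold). Leaving out the set Mural1 ended the calls of Wif1 (log2 difference -6.44) and Notum (-2.87), and leaving out Mural2 ended that of Sfrp4 (-7.69), since the share on the mural side then fell below 10%. The Cldn5-eGFP levels of most members came largely from single cells. One cell held 100% of the Sfrp4 reads there, 96.9% of Rspo1, 75.3% of Wif1, 72.3% of Wnt5a, 69.0% of Sfrp1, 58.0% of Wnt11 and 46.9% of Notum. Leaving out that cell, which is on the lower side, could only widen a fold and is no check of the calls. Folds without it were at least 2953 for Sfrp4, 2696 for Wif1, 142 for Wnt5a, 78.9 for Notum, 47.5 for Sfrp1 and 16.8 for Wnt4. Against Mural3 the genes past the rule were Sfrp4 (0.220 CPM in Cldn5-eGFP cells and 219 CPM in Mural3, 995-fold lower), Sfrp1 (3.00 and 249.5 CPM), Wnt5a (1.57 and 66.9 CPM, 42.7-fold), Rspo1 (0.985 and 32.8 CPM, 33.3-fold) and Wnt11 (0.918 and 12.6 CPM, 13.7-fold). Without the top Cldn5-eGFP cell these folds were at least 11928 for Sfrp4, 1071 for Rspo1, 268 for Sfrp1, 154 for Wnt5a and 32.7 for Wnt11. Top cells on the mural side were kept in these folds, and 1 cell held 32.9% of the Sfrp4 reads in Mural3. Wnt4 had 3.00 CPM in Cldn5-eGFP cells and 2.72 CPM in Mural3, a log2 difference of 0.14 with a counting interval of the fold from 0.961 to 1.27. Rspo3 was past the rule in neither comparison, with 11.0 CPM in Cldn5-eGFP cells, 14.9 CPM in Mural1 and Mural2 and 13.4 CPM in Mural3.

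The mural sets also differed. Wnt4 was 13.1-fold higher (11.7 to 14.6) in Mural1 and Mural2, at 35.6 CPM, than in Mural3, at 2.72 CPM, and Wif1 31.6-fold higher (30.8 to 32.5), at 1223 and 38.6 CPM. Sfrp1 was 5.65-fold lower, at 44.2 CPM in Mural1 and Mural2 and 249.5 CPM in Mural3, and Sfrp4 4.04-fold lower, at 54.3 and 219 CPM. Over all genes 2.18% were higher and 0.314% lower, 479 and 69 genes, and with TMM scaling the split was 338 and 122. Such scaling moved the median of all genes by -0.40 (log2) in this comparison and by -0.42 between Cldn5-eGFP and Mural3, and all 4 member differences kept their direction. Under that scaling Rspo1, at 8.76 CPM in Mural1 and Mural2 and 32.8 CPM in Mural3, also passed the rule as lower (log2 -2.30, against -1.91 unscaled), which made 3 lower members. Wif1 in Mural2 alone was 2.04 above Mural3 (log2) and not past the rule. Sfrp4 fell short of 4-fold without its top cell (-1.44). Of the cells, 11.9% of Mural1 and Mural2 were chondrocyte- or perichondrial-like and 18.3% pericyte-like, against 0 of each in Mural3, while 25.8% and 85.0% were fibroblast-like. The part of this makeup in the differences was not tested.

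Set by set, Wif1 had 2951 CPM in Mural1, 159 in Mural2 and 38.6 in Mural3, and Notum 154, 11.5 and 25.1. Wnt4 had 33.8 CPM in Mural1, 36.7 in Mural2 and 2.72 in Mural3, so both sets of the pooled pair lay well above Mural3. Among Cldn5-eGFP sets Rspo3 varied most in absolute level, with 18.6 CPM in EC1, 1.03 in EC2 and 14.5 in EC3, and 1 cell held 48.4%, 54.2% and 49.3% of these reads. Sfrp1 had 8.17 CPM in EC2, of which 71.9% was in 1 cell, 0.405 in EC1 and no read in EC3.

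**Figure D3:**
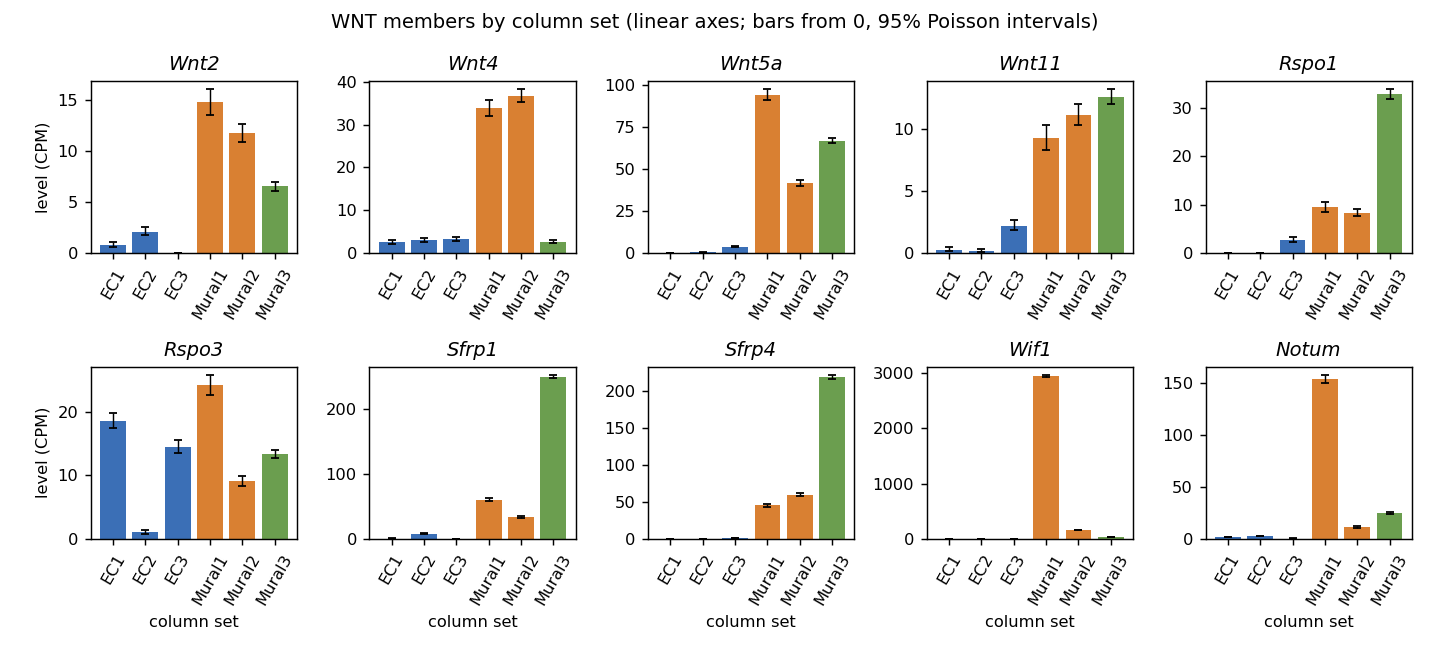
Level of each member (CPM on linear axes that start at 0) in the 6 column sets, with the 3 Cldn5-eGFP sets in blue, Mural1 and Mural2 in orange and Mural3 in green, and error bars for the 95% exact Poisson interval. Wif1 reaches 2951 CPM in Mural1 and 38.6 CPM in Mural3, Wnt4 lies at 33.8 and 36.7 CPM in Mural1 and Mural2 and at 2.72 CPM in Mural3, and Rspo3 spans 1.03 to 24.2 CPM without a gap between the Cldn5-eGFP and mural sets.

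Pericytes and smooth muscle cells both wrap vessels, and the members set the 2 classes apart in their ligands. Wnt4 (264 CPM in pericyte-like and 5.79 CPM in smooth muscle-like cells) and Wnt5a (111 and 1.09 CPM, 102-fold, 66.8 to 163) were higher in pericyte-like cells, where 3.86% of the genes tested were higher. No member was lower, where 4.78% of genes were. Within Mural2, which held 41 pericyte-like and 54 smooth muscle-like cells, Wnt4 had 268 and 5.84 CPM and Wnt5a 76.6 and 0.814 CPM, and both stayed past the rule. Wnt11 had 19.8 CPM in pericyte-like cells and 1 read in smooth muscle-like cells (401-fold, with an interval of 71.2 to 15912), but its share of 7.58% was under the rule. Rspo3 ran the other way without passing it, with no read in pericyte-like cells and 10.3 CPM in smooth muscle-like cells, or 4.22 CPM without its top cell.

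Of the 85 other pathway genes, 11 were higher in pericyte-like cells and 7 lower, and 8 and 6 of these calls stood without the top cell of the higher side. The higher ones included the targets Lef1 (245 CPM in pericyte-like and 0.791 CPM in smooth muscle-like cells), Axin2 (54.5 and 4.75 CPM) and Tcf7 (97.2 and 2.97 CPM), and the co-receptors Gpr124 (170.4 and 20.8 CPM) and Reck (1153 and 139.5 CPM). Not all targets ran this way. Nkd1 (39.9 and 107 CPM) and Sp5 (no read and 1.04 CPM) ran the other way without passing the rule. The ligand Wnt5b had 32.8 CPM in pericyte-like and 5.94 CPM in smooth muscle-like cells, but 40.2% of its pericyte-like reads were in 1 cell, and without it the level was 20.2 CPM and the call was lost. Lef1 had a read in 75.8% of pericyte-like cells, and 39 of the 49 with a Wnt4 read had one of Lef1 too, against 50 of all 66. Among the lower genes were Sost, a secreted inhibitor known from bone (no read in pericyte-like and 39.7 CPM in smooth muscle-like cells), the R-spondin receptors Lgr6 (16.5 and 268 CPM) and Lgr4 (7.01 and 38.3 CPM), and Sfrp2 (8.19 and 145 CPM). Epithelial transcripts differed between the classes as well. All 12 epithelial markers had reads in both, with 1479 CPM summed over the list in pericyte-like and 3645 CPM in smooth muscle-like cells, and their part in these differences was not tested.

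Within the fibroblast-like class the members formed different sets in different clusters. The clusters are given by number, since no marker of the general fibroblast list was among the 10 leading genes of any of them. Leading genes of cluster 12 include Rspo4, Lgr5, the alveolar fibroblast marker Col13a1 and the pericyte marker Lamc3. Over the full lists, 79.3% of its pairs of an adventitial fibroblast marker and a cell had a read. For alveolar fibroblast markers this was 46.8% and for pericyte markers 21.3%, so these 2 leading genes do not name the cluster. Those of cluster 14 include Tnc and the peribronchial or myofibroblast markers Hhip and Aspn, and those of cluster 15 Col28a1 and the mesothelial marker Upk1b. Cluster 15 was kept in the class because 84.5% of its pairs of a fibroblast marker and a cell had a read, against 7.48% for mesothelial markers. Its alveolar and adventitial fibroblast markers had 66.1% and 60.1%. Without its 21 cells the class had 206 CPM of Sfrp1, 221 of Sfrp4 and 10.5 of Wnt2, and the same 5 members were led by a class. Of 14 member calls between the other clusters, 13 stood without cluster 15 on the opposite side, and the lower Sfrp1 in cluster 12 did not (log2 difference -1.87). Each of the 7 clusters drew on Mural3, and cluster 3 on all mural sets (28 cells of Mural1, 39 of Mural2 and 36 of Mural3). Cluster 16, with 19 cells, was too small for a comparison.

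Cluster 12 (38 cells, 36 of them from Mural3) differed most from the other fibroblast-like cells in its members. Notum had 236 CPM there and 3.54 CPM in the other clusters, 66.7-fold higher (60.6 to 73.5), and Wif1 237 and 9.59 CPM, 24.7-fold higher (23.1 to 26.3). Wnt4 was 6.34-fold higher at 11.9 CPM in cluster 12, but 67.3% of it was in 1 cell, and without that cell it had 3.99 CPM and was not past the rule. In cluster 12, 3 members were higher, where 0.866% of genes were, and 5 lower, where 1.48% were: Wnt5a, Wnt11, Rspo1, Sfrp1 and Sfrp4. Sfrp4 had 1.30 CPM in cluster 12 and 231 CPM in the others (178-fold lower, 113 to 301), and Wnt5a 10.3 and 88.9 CPM. The lower call of Sfrp1 (60.8 and 252 CPM) lay near 4-fold and was lost without the top cell of the other clusters (log2 difference -1.99).

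The cells of cluster 12 with a read of the 2 inhibitors overlapped in part. Of its 38 cells 21 had a Notum read and 13 a Wif1 read, and 12 had both. Over all 411 fibroblast-like cells, 45.5% of the 33 cells with a Notum read had one of Wif1, against 6.57% of all cells, and 14 of the 19 cells with a read of the R-spondin receptor Lgr5 had one of Notum. Of the other pathway genes 8 were higher in cluster 12, 6 of them also without the top cell, among them Rspo4 (79.4 CPM in cluster 12 and 2.11 CPM in the others), Dkk2 (163 and 10.2 CPM), Lgr5 (87.9 and 4.39 CPM) and Axin2 (26.2 and 4.80 CPM), and 2 were lower, Wnt2b and Fzd4. Cells of a cluster share their samples, so these counts describe cells and not replicates.

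The other clusters differed in fewer members. Cluster 2 (137 cells) had Rspo3 at 26.3 CPM, 7.03-fold above the 3.74 CPM of the other clusters (6.26 to 7.91), the one member higher there (0.128% of genes), and Notum lower at 0.0779 CPM (0.502% of genes were lower). Cluster 5 (72 cells) had Sfrp4 at 12.3 CPM, 20.7-fold below 254 CPM in the others, the single member lower there (0.492% of genes), and none higher (0.0821%). Cluster 3 (103 cells) had lower Notum only (0.611% of genes were lower and 0.283% higher), at 0.139 CPM, and that call was lost within Mural3. The lower Notum calls of clusters 2 and 3 are set against clusters that include cluster 12, at 236 CPM. All clusters but cluster 12 had 3.54 CPM of Notum together, below the 10 CPM of the rule, so these calls largely mirror cluster 12. Within cluster 3, where the mural sets can be set side by side, Sfrp4 had 164 CPM in Mural1, 189.6 in Mural2 and 518 in Mural3, and Sfrp1 92.9, 7.45 and 163 CPM.

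Cluster 15 (21 cells) had the highest Sfrp1 level, 760.3 CPM with a read in all 21 cells, and no Rspo1 read, at least 76.6-fold below the other clusters. Sfrp4 and Wnt11 had 1 read each there, and 3 members in all were lower (2.56% of genes were). Wnt2 (65.7 CPM, 6.28-fold higher) and Wnt4 (11.2 CPM, 4.79-fold) were called higher in cluster 15 (1.41% of genes were), and both calls were lost without the top cell, at 34.3 and 5.95 CPM. Cluster 14 (21 cells) had lower Sfrp1 and Sfrp4 (45.6 and 36.5 CPM, 2.83% of genes were lower) and no member higher (2.02%). Its top cell held 45.8% of these Sfrp1 reads and 99.1% of the Sfrp4 reads, and without it the levels were 26.6 and 0.333 CPM. Its Wnt5a level of 278 CPM was the highest of the clusters, and 135 CPM without the top cell. Of 19 calls between fibroblast-like clusters and 2 between pericyte-like and smooth muscle-like cells, 17 stood without the top cell of the higher side and 4 did not, and of 14 that could be remade within a single set 13 stood.

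**Figure D4:**
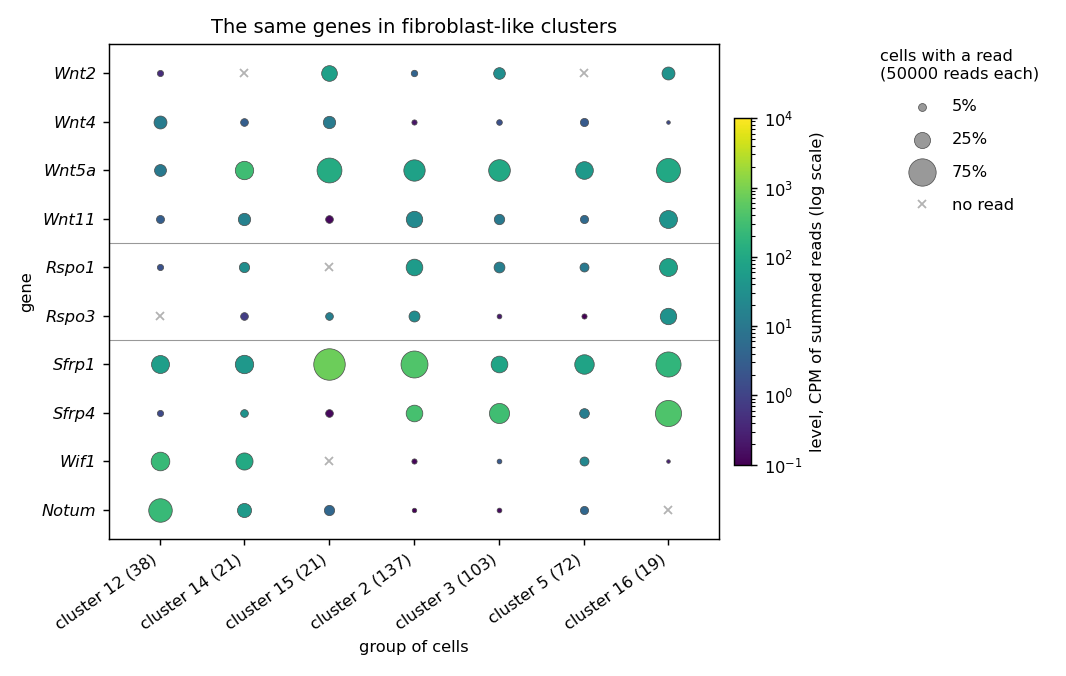
The 10 members in the 7 fibroblast-like clusters (cell numbers in parentheses), where colour gives the level in CPM on a log scale, dot area the share of cells with a read, and a cross no read. Wif1 (237 CPM) and Notum (236 CPM) are high in cluster 12, where Sfrp4 is at 1.30 CPM, while Sfrp4 reaches 339 CPM in cluster 2 and 295 CPM in cluster 3 (152 and 238 CPM without the top cell, which turns their order), and Sfrp1 760.3 CPM in cluster 15.

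Likeness was measured as Pearson's r of log2(CPM + 1) over the 15 clusters of at least 20 cells, among 12827 genes with at least 10 CPM in some cluster, as a description with no test. The clusters share cells' sources and depth, and many of these genes took part in the clustering. Wif1 and Notum were each other's nearest gene (r = 0.908), followed for both by Fam19a5 and Eya4. The nearest genes were Tdrd6 for Wnt4 (0.922), Fst for Wnt5a (0.95), Pcdh19 for Wnt11 (0.941) and Nrap for Wnt2 (0.813). Cyp1b1 was nearest to both Rspo1 (0.931) and Sfrp4 (0.966), Mmp19 to Sfrp1 (0.948) and Sardh to Rspo3 (0.794).

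Of the 85 other WNT pathway genes measured, 59 reached 10 CPM in some class and 9 were led by a class. Among all genes kept out of the clustering 4.69% were led, and 8.31% of those that reached 10 CPM in some class. By role the 9 genes were 2 of 16 ligands, 0 of 2 R-spondins, 2 of 19 inhibitors, 0 of 2 ligand-processing genes, 4 of 22 receptors and co-receptors, 0 of 15 signal transduction genes and 1 of 9 targets. Chondrocyte- or perichondrial-like cells led 4 of them: Ndp, a Frizzled-4 ligand (197 CPM), the inhibitor Frzb (142 CPM) and the receptors Fzd9 (417 CPM) and Fzd10 (18.0 CPM). Pericyte-like cells led Gpr124 and Lef1, smooth muscle-like cells Sost and Lgr6, and fibroblast-like cells the ligand Wnt9a (44.6 CPM).

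No other WNT gene was led by an endothelial class, although receptors and targets were read there. Only 0.31% of genes were led by general capillary-like, 0.264% by aerocyte-like and 0.857% by lymphatic-like cells, so this absence says little. The rule also asks for 4-fold over the other endothelial classes, which a gene shared by them does not reach. The target Nkd1 had 781 CPM in aerocyte-like and 263 CPM in general capillary-like cells, 2.97-fold apart, and the Frizzled-4 partner Tspan12 had 659 CPM in aerocyte-like cells. Other targets differed from Nkd1 in aerocyte-like cells, where Ccnd1 had 261 CPM, Axin2 2.09 CPM and Lef1 no read. In Cldn5-eGFP cells 4 of the 85 genes were higher (2.44% of all genes) and 18 lower (5.99%) than in Mural1 and Mural2, and 4 were higher (3.41%) and 14 lower (4.71%) than in Mural3. Nkd1, Tspan12 and Fzd6 were higher in both, with Fzd4 as the fourth against Mural1 and Mural2 and Ccnd1 against Mural3. The call of Nkd1 against Mural1 and Mural2 was lost without its top cell (log2 1.98). Wls, which carries WNT ligands to the cell surface, varied little between classes, from 211 CPM in aerocyte-like to 409.8 CPM in chondrocyte- or perichondrial-like cells. Porcn, which adds their lipid, had 11.9 CPM in pericyte-like cells, with 69.5% of it in 1 cell, and between 21.9 and 35.5 CPM in the other classes. The highest of these, in aerocyte-like cells, was not beyond counting error above the 31.1 CPM of lymphatic-like cells, all from 1 cell.

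**Figure D5:**
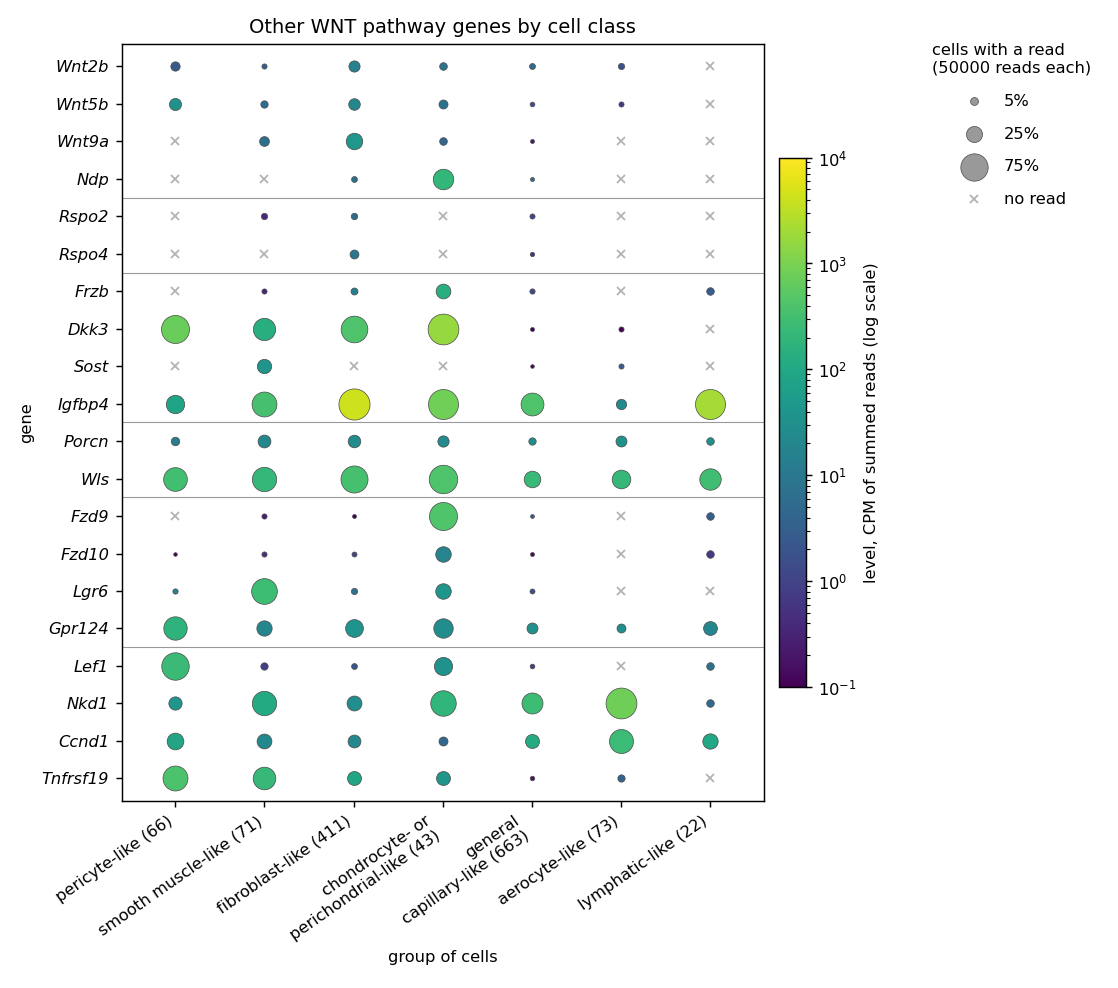
The named other WNT pathway genes but those of signal transduction, grouped by role, in the 7 classes, where colour gives the level in CPM on a log scale, dot area the share of cells with a read, and a cross no read. Fzd9, Ndp and Frzb are high in chondrocyte- or perichondrial-like cells (417, 197 and 142 CPM), Lef1 and Gpr124 in pericyte-like cells (245 and 170.4 CPM) and Lgr6 in smooth muscle-like cells (268 CPM), while Wls lies between 211 and 409.8 CPM in all.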

How the data were processed

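Expression was measured by SMART-seq2 in 1504 sorted lung cells. The authors deposited a table of read counts, with genes in rows and cells in columns, and a second table of scores, scaled from them per cell and rounded. The submitters' processing notes name STAR 2.4.2a and mm10, and the counting program, annotation and cell filter are not given in the sources used here. Every result rests on the deposited counts, and the deposited scores enter a single alternative.

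The members and gene lists were chosen with earlier results of these data known. Cells were clustered with leidenalg 0.10.2 (resolution 1, 15 neighbours, 30 principal components) on the 2000 most variable genes, as log values scaled to 10000 reads a cell, leaving out 10966 genes that include all WNT genes. Of 19 marker lists, those of the 7 classes named clusters, at 40% or more of marker and cell pairs with a read. Clusters stayed unnamed at 50% or more for epithelial or leukocyte markers, and the remaining lists named none. These thresholds were set after the data had been seen. The fibroblast list was used only where no other class list reached 40%. The chondrocyte- or perichondrial-like cluster thus had 84.0% for fibroblast markers and 68.8% for its own. Mural1 and Mural2 were pooled.

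Intervals are exact at 95%: Poisson for CPM, Clopper-Pearson for shares and conditional for folds. Reads carry no molecular identifiers, and the intervals and floors therefore cover only counting error. A side under 3 reads was set to 3 reads for the size rule and for "at least" folds, and a share of 0 allows 3 cells of the total. Coordinates count from 1 and come from GENCODE on GRCm38, and exon lengths for RPKM from the same annotation. Named genes are the members, the 3 genes most like each, and up to 4 pathway genes per role, those led by a class first and then by level; other pathway genes named within comparisons were picked after their values were seen. Python 3.11.15, SciPy 1.17.1 and matplotlib 3.10.9 were used. The size rule was also run on simulated classes that share a common mean profile apart from set changes, without thinning. That run does not check the calls against single cells that hold much of a gene's reads. Alternatives changed scaling, thresholds, depth, cells, sets and clustering.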

Additional observations from a re-analysis of the deposited data

How the results depend on the processing

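No paired analysis was possible because replicate numbers follow accession order only and the columns carry none. The 20 member differences past the rule were recomputed under up to 22 alternatives, 357 values in all. Of these values 336 stayed past the rule, 21 did not, and 0 reversed. Some of the 336 could not have been lost, since 4-fold only, a 2-fold rule and shares without thinning only loosen the rule. Clustering at resolution 2 or with another seed gave classes of unchanged size. At resolution 0.5 the pericyte-like class had 87 cells (66 in the report) and the fibroblast-like class 390 (411), and the other classes kept their size. The number of members led by a class ran from 4 to 7 (5 in the report). Requiring 50 CPM and 25% of cells left 1 member lower in Cldn5-eGFP cells than in Mural1 and Mural2 (6 in the report), 2 lower than in Mural3 (5), and, in Mural1 and Mural2 against Mural3, 0 higher and 1 lower (2 each), and 5 other WNT genes led by a class (9). Asking for 4-fold only gave 8 members lower in Cldn5-eGFP cells than in Mural3 and 17 other WNT genes led, and a 2-fold rule gave 23. Without Mural1, 1 member was higher and 1 lower in Mural2 than in Mural3. The lower count was also 1 with cells of at least 200000 reads, without doublet-like cells, without mixed clusters, and without the cell with most reads of each member, an alternative chosen after seeing the data, as were the recounts without cluster 15 and without single top cells. In each of these, Sfrp4 fell short of 4-fold (log2 -1.96 to -1.44), and the cause was not tested. With 1 sample per population and 19 to 22 cells in the smallest clusters, single cells limit the levels given.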

Other observations

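Some WNT genes outside the 10 members had their highest levels in cells that were given no class name. In cluster 11, 41 cells whose leading genes include Lyz1 and Cxcl15 and whose 12 epithelial markers were read in 87.8% of marker and cell pairs, the ligand Wnt7b had 16.2 CPM (13.9 to 18.9), Wnt3a 12.5 CPM (10.5 to 14.9) and the ubiquitin ligase Rnf43 22.4 CPM (19.6 to 25.5), against 0, 0.273 and 0.455 CPM in pericyte-like cells. The ligand Wnt10b had 67.9 CPM (61.9 to 74.5) in fibroblast-like cluster 16, with a read in 47.4% of its 19 cells, and 7.21 CPM in cluster 12. Cluster 16 also had Rspo1 at 72.7 CPM and Sfrp4 at 407 CPM, or 53.1 and 269 CPM without the top cell of each. These genes were singled out after their values were seen, and no comparison was made.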
